A study of Arabidopsis thaliana with 6 samples.

Results

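AT5G48570 (also FKBP65 or ROF2), a heat-induced immunophilin gene, and 5 genes for HSP20-like small heat shock proteins, AT1G53540, AT1G59860, AT1G07400, AT2G29500 and AT5G37670, were followed on Affymetrix ATH1 arrays of GRF9-IOE plants, which express GROWTH-REGULATING FACTOR 9 (GRF9) from an estradiol (EST)-inducible promoter. The array annotation paired 4 of the 6 genes with a probe set of their own and paired AT1G59860 and AT1G07400 with 1 common probe set, so that 5 probe sets of 22746 carry the 6 genes. Unless another base is stated, gene counts and shares refer to 13355 genes, each represented by 1 probe set that the annotation pairs with that gene alone. The annotation paired 8730 probe sets with no gene, so a gene said below to lack a probe set of its own is not thereby shown to be absent from the array. The common probe set of AT1G59860 and AT1G07400 gives 1 value for both, and neither gene can be read from it separately.

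There were 6 arrays, 1 for each condition. All plants carried the GRF9-IOE construct. Whole 2-week-old seedlings from MS plates received 10 µM EST or the ethanol solvent (0.1%, mock) for 3 h or 4 h, and detached mature leaves of 40-day-old plants from soil received the same for 6 h, by the sample labels, from which the study's methods differ in the age of the leaf donors and in the ethanol content. No array holds plants without the construct, so EST and GRF9 induction cannot be told apart. Leaves differ from seedlings at the same time in age, growth medium, day length (as the labels give it), detachment and hours of treatment, and these cannot be told apart either.

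Small heat shock proteins are chaperones that bind unfolding proteins without using ATP and keep them soluble until HSP70 and HSP100 chaperones refold them. In plants their genes are switched on by heat through heat shock transcription factors, and most give little transcript in vegetative tissue that has not been stressed. AT5G48570 encodes an FK506-binding protein, one of the immunophilins, a class of enzymes that turn peptide bonds before proline. Some of them act beside HSP90. Co-chaperones such as the Hop proteins connect HSP70 with HSP90.

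Values are log2 signals normalized by the authors with GCRMA, and a difference of 1 between log2 signals is 2-fold. The lowest value, 2.15, was held by 22.8% to 24.3% of the probe sets, depending on the array, and a signal there can show an increase but no decrease. Signals correlated at 0.995 to 0.997 among the seedling arrays, at 0.993 between the leaf arrays and at 0.91 to 0.926 between seedlings and leaves. The study states that ATH1 arrays do not represent GRF9, and the annotation paired 0 probe sets with it, so that its induction was not checked here. Of 7 root marker genes 3 had a probe set of their own, and PYK10 (a root β-glucosidase) had signals of 12.06 to 12.27 in seedlings and of 2.17 on both leaf arrays, whereas another, AT5G17820, stayed at 2.15 to 2.63 on all arrays. The third, AT4G30170, had 3.10 to 6.35 in seedlings and 2.15 to 2.17 in leaves. In seedlings AT4G30170 differed between EST and mock by −1.90 at 3 h and 1.94 at 4 h. PYK10 differed there by 0.20 and −0.01, and AT5G17820 by 0.00 and 0.47. The photosynthetic marker RCA, rubisco activase, was at 13.44 to 14.13 on all 6 arrays, and the annotation paired the other 6 photosynthetic markers with no probe set of their own.

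The members were selected on their signals on these same arrays, with the differences of EST from mock and of leaves from seedlings in view and with no stated threshold, so the values below are a description and carry no test. With 1 array for a condition no difference at a single time point has an error of its own.

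The signals of all 5 probe sets were higher in detached leaves than in seedlings. AT5G48570 had a signal of 6.85 in mock and 5.64 in EST seedlings at 3 h. At 4 h these were 6.93 and 6.40, and in mock and EST leaves 8.21 and 8.66. Its lowest array was that of EST seedlings at 3 h and its highest that of EST leaves, which span 3.02 log2 units. AT1G53540 lay next to the array minimum in seedlings, with 2.20 in mock and 2.20 in EST seedlings at 3 h and 2.17 and 2.20 at 4 h, and reached 4.06 in mock and 4.70 in EST leaves. It was thus above the array minimum by more than 1 log2 unit on the leaf arrays alone, and its seedling values have no order among themselves.

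The probe set of AT1G59860 and AT1G07400 had 4.47 in mock and 5.18 in EST seedlings at 3 h, 5.07 and 5.58 at 4 h, and 8.94 and 9.73 in mock and EST leaves. This was the widest span of the 5 probe sets, 5.25 log2 units, and the lowest leaf array stood 3.36 above the highest seedling array. AT2G29500 had 4.57 and 4.13 in mock and EST seedlings at 3 h, 5.16 and 5.21 at 4 h, and 7.07 and 7.79 in leaves. AT5G37670 had the smallest span, 1.79, with 5.72 and 5.51 in mock and EST seedlings at 3 h, 5.82 and 5.66 at 4 h, and 7.29 and 6.97 in leaves. It was the 1 probe set of 5 whose highest signal was in mock leaves and not in EST leaves.

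**Figure D1:**
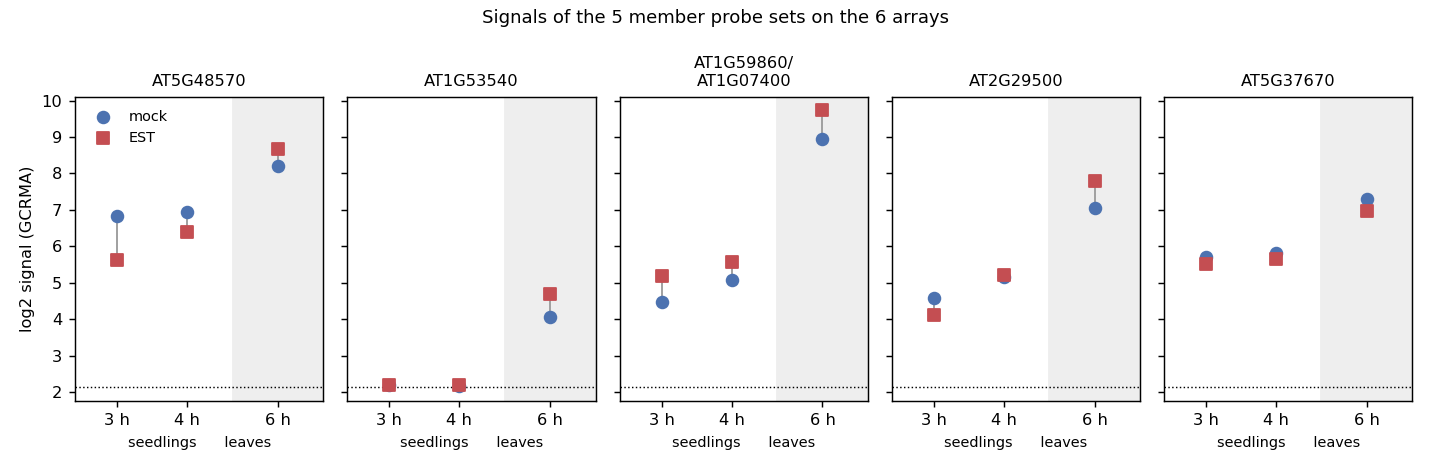
Log2 GCRMA signals (vertical axis) of the 5 member probe sets on the mock (circles) and EST (squares) arrays of seedlings (3 h, 4 h) and leaves (6 h, shaded), with 1 array for each point and a dotted line at the lowest value, 2.15. All leaf points lie above all seedling points of the same probe set, and AT1G53540 lies at 2.17 to 2.20 in seedlings.

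Both leaf arrays lay above all 4 seedling arrays for 5 of the 5 probe sets, a pattern found for 23.6% of all genes. The gap between the lowest leaf and the highest seedling signal was at least 2-fold for all 5, against 8.6% of all genes, and ranged from 1.14 for AT5G37670 and 1.28 for AT5G48570 through 1.85 for AT2G29500 and 1.86 for AT1G53540 to 3.36 for the probe set of AT1G59860 and AT1G07400. The 4 seedling arrays spanned 0.03 for AT1G53540, 0.32 for AT5G37670, 1.08 for AT2G29500 and 1.11 for the probe set of AT1G59860 and AT1G07400, each less than the gap of the same probe set. For AT5G48570 they spanned 1.29, about as much as its gap to the leaves. Since these signals were in view when the members were chosen, the counts describe them and show nothing further. In bulk tissue, fewer cells that express a gene and less of its RNA in each cell cannot be told apart. The root markers PYK10 and AT4G30170 move with the same contrast, and AT4G30170 also differs between EST and mock seedlings. The part of root tissue in the differences was not tested.

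Set against the mean of the mock seedling arrays, mock leaves were higher by 1.32 on the log2 scale for AT5G48570, 1.53 for AT5G37670, 1.87 for AT1G53540, 2.20 for AT2G29500 and 4.17 for the probe set of AT1G59860 and AT1G07400, which is 17.9-fold. All 5 were at least 2-fold higher, against 13.3% of all genes, or 22.2% of the 7973 genes that stand more than 1 log2 unit above the minimum on at least 1 array. The median over the members, which is the value of AT1G53540, was 1.87 and that over all genes 0.00. A difference as high as that of the AT1G59860 and AT1G07400 probe set was seen for 0.786% of genes, and one as high as that of AT5G48570 for 10.0%. Since AT1G53540 was next to the minimum in seedlings, its 1.87, and with it the median, is no exact difference.

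After EST, leaves were higher than the mean of the EST seedling arrays by 1.38 for AT5G37670, 2.50 for AT1G53540, 2.64 for AT5G48570, 3.12 for AT2G29500 and 4.35 for the probe set of AT1G59860 and AT1G07400. Again all 5 were at least 2-fold higher, against 11.7% of all genes, or 19.6% of those more than 1 above the minimum, and the median of the members was 2.64. Compared with the mock arrays, AT5G48570 moved most, from 1.32 to 2.64, because it was lower in EST than in mock seedlings and higher in EST than in mock leaves. Taken against the 3 h seedling array alone its leaf difference after EST was 3.02, and against the 4 h array alone 2.26.

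**Figure D2:**
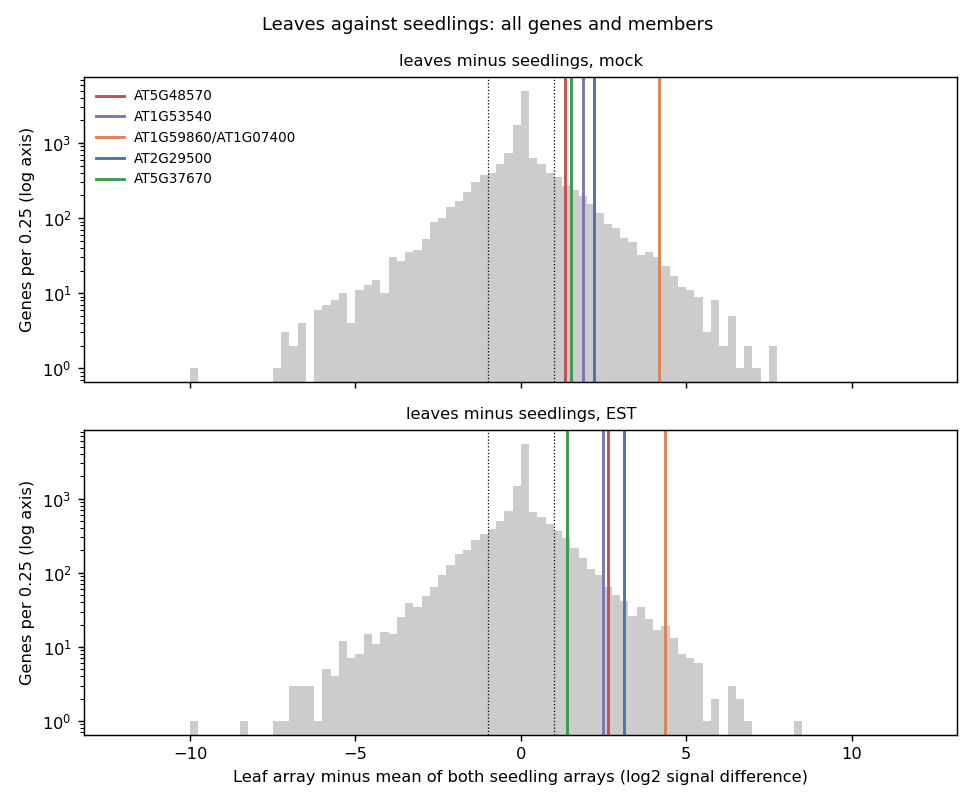
Number of genes (vertical, log axis) by the leaf array minus the mean of the 3 h and 4 h seedling arrays (horizontal, log2 difference in bins of 0.25) for mock (top) and EST (bottom), with coloured lines at the 5 member probe sets and dotted lines at a 2-fold difference. The members lie between 1.32 and 4.17 in mock and between 1.38 and 4.35 after EST.

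EST set against mock at each time point gave differences of less than 2-fold for most members. In seedlings at 3 h, AT5G48570 was lower after EST, with a log2 difference of −1.21, which is 2.31-fold, and was the 1 member probe set of 5 that was at least 2-fold lower, against 0.389% of all genes. A difference as low was seen for 0.172% of genes. At 4 h the same gene differed by −0.53 and in leaves by 0.45. Without EST its signal was 0.09 higher at 4 h than at 3 h, and against the mock array of the other time point it differed by −1.29 (EST at 3 h) and −0.45 (EST at 4 h). With these mock arrays 0.337% of all genes were at least 2-fold lower at 3 h and 1.24% at least 2-fold higher at 4 h.

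The probe set of AT1G59860 and AT1G07400 was higher after EST in each of the 3 pairs, with 0.71 and 0.51 in the seedling pairs and 0.79 in the leaf pair, and in none of them 2-fold. The mock arrays of 4 h and 3 h differed by 0.59 for this probe set without any EST, and with these exchanged the seedling differences were 0.12 and 1.11. AT2G29500 gave −0.44 and 0.05 in the seedling pairs and 0.73 in the leaf pair, and its mock arrays also differed by 0.59. With them exchanged it differed by −1.03 and 0.64 in seedlings, so the seedling values of both probe sets depended on the mock array they were set against.

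AT5G37670 was lower after EST in all 3 pairs, with log2 differences of −0.21, −0.16 and −0.33. AT1G53540 differed by 0.00 and 0.03 in seedlings, where it could show no decrease, and by 0.64 in leaves. At 3 h 0 of the 5 probe sets were at least 2-fold higher, against 1.13% of all genes. At 4 h 0 reached 2-fold upward and 0 downward, against 0.614% and 0.18%, and in leaves 0 and 0, against 1.02% and 1.14%. The members' median was −0.21 in the 3 h pair and 0.64 in the leaf pair, beside 0.00 over all genes at each time point, and at 4 h it fell on AT1G53540, which lay next to the minimum on both arrays. In leaves 4 of the 5 were above 0 and 1 below, whereas 46.4% of the genes more than 1 above the minimum lay below. AT5G37670 was at −0.33 and the highest, the AT1G59860 and AT1G07400 probe set, at 0.79. Leaf differences as high as that of AT2G29500 were seen for 2.47% of all genes, of AT1G53540 for 3.48% and of AT5G48570 for 7.13%. One as low as that of AT5G37670 was seen for 10.2%.

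A fit of EST against mock with limma, in which the time points stand as 3 replicates, called 0 of the 13355 genes at an adjusted p of 0.05. Without adjustment, p was under 0.05 for 46 genes in the upward and 12 in the downward direction. This fit left out the pairing of EST and mock by time point, so the step between seedlings and leaves entered its error. Its 0 therefore does not show that EST had no effect. With the time point as a block limma also called 0 genes, and unadjusted p was under 0.05 for 385 upward and 228 downward. In the fit without a block, 3 genes were called when the 6 h arrays were left out. The 4 members with a probe set of their own were among the genes fitted, and no p-value is given for them because they were selected on these arrays.

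Between 3 h and 4 h in seedlings, AT2G29500 was higher at 4 h by 1.08 after EST, which is 2.11-fold and the 1 such difference among the members (0.374% of all genes), and by 0.59 in mock. AT5G48570 was higher at 4 h by 0.76 after EST and by 0.09 in mock. In mock seedlings 0 of the 5 probe sets reached 2-fold either way at 4 h, against 0.419% and 0.292% of all genes.

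Over the 6 arrays, the signals of the members correlated with each other at 0.875 to 0.985 (Pearson's r, 10 pairs). These correlations follow the step between seedlings and leaves. In seedlings AT5G48570 and AT5G37670 had the same order of arrays, EST at 3 h lowest, then EST at 4 h, mock at 3 h and mock at 4 h. Their r over the 4 seedling arrays, 0.96, was the highest of the 10 pairs. The probe set of AT1G59860 and AT1G07400 had −0.44 with AT5G48570 and −0.28 with AT5G37670 there. AT2G29500 had 0.66 and 0.74 with these genes and 0.38 with that probe set. The members thus had no common order in seedlings, where AT1G53540 lay next to the minimum. All points are single arrays normalized together.

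The other chaperone genes were taken from lists of 16 further small heat shock protein genes, 20 HSP70, HSP90 and HSP100 genes, 11 co-chaperone genes and 11 genes for FK506-binding proteins and cyclophilins. The places in the lists, and the roles given below for genes without a symbol, rest on general knowledge of these genes and not on the array annotation. Of these 58 genes 19 had a probe set of their own, and AT4G10250 (ATHSP22.0) and AT1G52560 stood at 2.15 on all 6 arrays, which left 17. Of 24 genes for heat shock factors and other regulators of the heat response, the annotation paired 0 with a probe set of their own, so that the regulators were not analysed here.

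In mock leaves against mock seedlings, a 2-fold or larger difference was found upward for 5 of the 17 genes and downward for 3, against 22.2% and 21.0% of the genes more than 1 above the minimum. The small heat shock protein gene AT2G19310 was higher in leaves by 3.73 on the log2 scale, with signals of 6.56 to 7.57 in seedlings and of 11.07 and 10.99 in mock and EST leaves. Hop3 (AT4G12400), the heat-inducible member of the Hop co-chaperones, was higher by 3.41, with 4.24 to 5.08 in seedlings and 8.42 and 8.58 in leaves. Hsp70-2 (AT5G02490), a cytosolic HSP70, was higher by 3.00, and AT2G20560, a DnaJ-type co-chaperone, by 2.34. AT2G27140, a further HSP20-like gene, was higher by 1.89.

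Other genes of the same lists stood the other way. AT5G47600, an HSP20-like gene, had a mock difference of −3.97, with 5.53 to 6.65 in seedlings and 2.15 and 2.23 in leaves, which is at the array minimum. AT4G02450, a p23-type HSP90 co-chaperone, had −2.03 and the small heat shock protein gene AT1G54050 had −1.02. Hop1 (AT1G12270), which belongs to the same family as Hop3, had a difference of −0.81 and Hop2 (AT1G62740) one of 0.10. The median over the 17 genes was 0.35, beside 0.00 over all genes. After EST 5 of the 17 were up 2-fold or more in leaves and 2 were down, against 19.6% and 19.2%, with a median of 0.35. Of 12 chaperone genes of the endoplasmic reticulum 2 had a probe set of their own, and CRT1b (AT1G09210), a calreticulin, differed by 0.62 in mock leaves and AT5G07340 by −0.02.

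**Figure D3:**
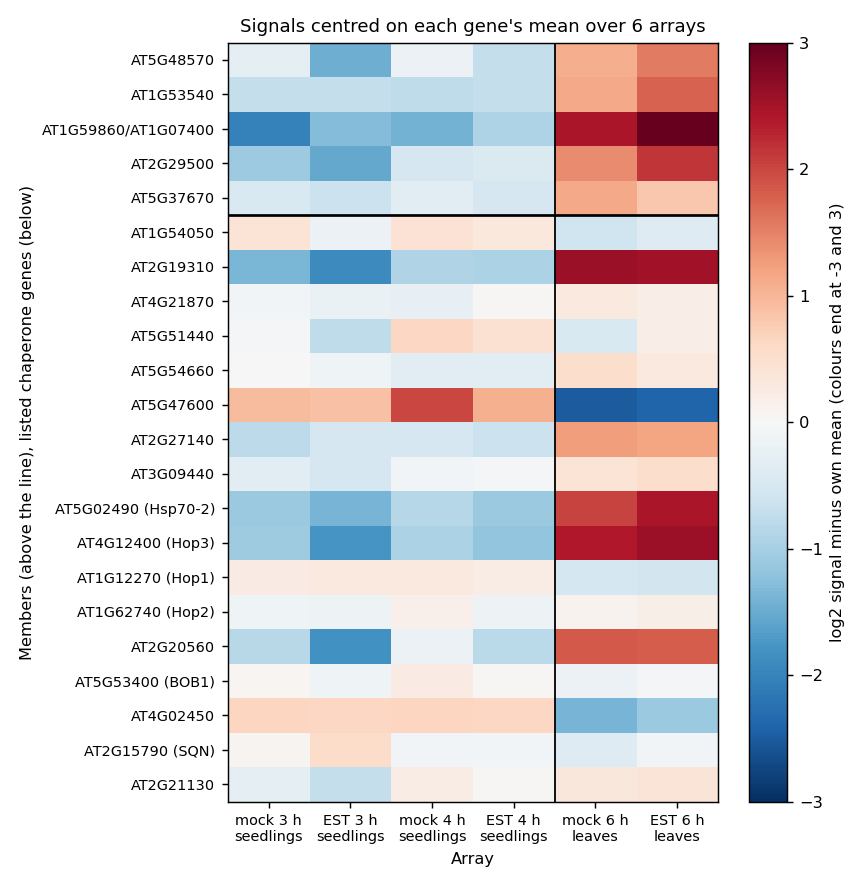
Log2 signal minus the gene's own mean over the 6 arrays (colour, ending at −3 and 3) for the 5 member probe sets (above the line) and 17 listed chaperone genes (below), with the arrays as columns. AT2G19310, Hsp70-2, Hop3 and AT2G20560 are higher on both leaf arrays, as the members are, whereas AT5G47600 and AT4G02450 are lower there.

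After EST at 3 h in seedlings, 14 of the 17 listed genes lay below mock and 3 above, whereas 44.9% of the genes more than 1 above the minimum lay below. None of the 17 reached 2-fold in either direction against the mock array of the same time point. AT2G20560 was lowest with −0.99, from 4.95 in mock to 3.95 after EST, followed by Hop3 with −0.70, AT5G51440 with −0.69, AT1G54050 with −0.60 and AT2G19310 with −0.54. The cyclophilin AT2G21130 had −0.45 and Hsp70-2 had −0.29. Of the members, AT5G48570 with −1.21, AT2G29500 with −0.44 and AT5G37670 with −0.21 lay on the same side, and the probe set of AT1G59860 and AT1G07400 with 0.71 on the other. The median of the 17 genes was −0.19 and that of all genes 0.00.

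At 4 h 13 of the 17 genes lay below mock and 3 above, against 44.3% below among the genes more than 1 above the minimum, with a median of −0.13. AT5G47600 was lowest with −0.93 and AT2G20560 had −0.63. The share over all those genes moved with the scaling more than the count of the list did. With quantile normalization 15 of the 17 lay below mock at 3 h beside 55.0%, and 15 at 4 h beside 55.2%, and with each array centred on its median 15 beside 64.1% and 14 beside 56.9%. These seedling counts also depended on the mock arrays, of which that of 4 h was higher than that of 3 h for 13 of the 17 genes and lower for 4 (38.3% of the genes more than 1 above the minimum). With the mock arrays exchanged, 13 of the 17 lay below mock at 3 h (54.2% of the genes more than 1 above the minimum) and 9 at 4 h (36.7%). At 3 h 4 of the 17 were then at least 2-fold lower, against 0.564% of the genes more than 1 above the minimum, namely AT2G20560 with −1.64, AT5G51440 with −1.38, AT5G47600 with −1.12 and AT2G19310 with −1.01. In leaves 11 of the 17 lay above mock and 6 below, against 46.4% below, with a median of 0.08, and AT5G51440 was highest with 0.66. Signals below mock in both seedling pairs and above it in leaves were found for 9 of the 17 genes and for AT5G48570 among the members, against 11.7% of the genes more than 1 above the minimum. SQN (AT2G15790), a cyclophilin, had signals of 2.48 to 3.42 on all arrays, and its 0.48 at 3 h rests on weak signals.

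**Figure D4:**
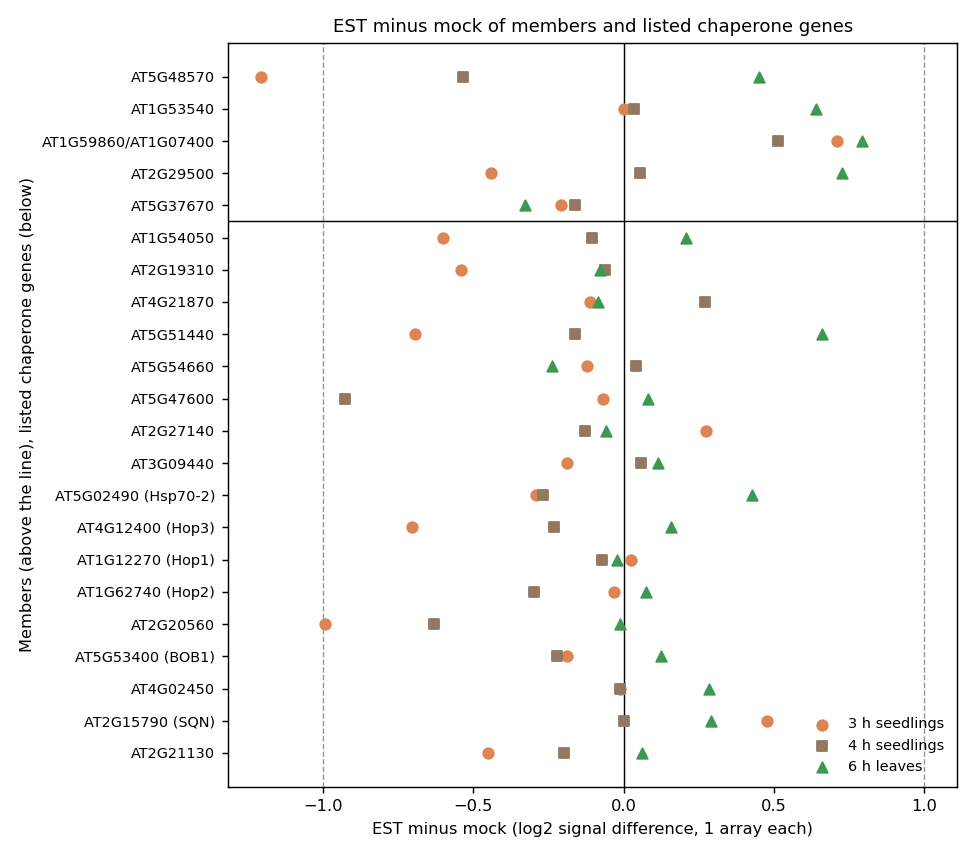
EST minus mock (horizontal axis, difference of log2 signals of 1 array each) for the 5 member probe sets (above the line) and 17 listed chaperone genes (below) in seedlings (3 h and 4 h) and leaves (6 h), with dashed lines at a 2-fold difference. AT5G48570 at 3 h (−1.21) lies beyond a line, and AT2G20560 at 3 h (−0.99) is next to it.

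Genes with the pattern most like the mean of the 5 members, each centred on its own mean, were sought among 4528 genes whose signals spanned at least 1 log2 unit. By Pearson's r over the 6 arrays these were AT3G16740 and AT1G52420 (0.9998 and 0.9994), RST1 (0.9992), HPR (0.9986), a hydroxypyruvate reductase of photorespiration, and AT3G04480 (0.9982). HPR gave 10.82 (mock) and 10.60 (EST) in 3 h seedlings, 10.95 and 10.89 in 4 h seedlings and 12.01 and 12.23 in leaves. The genes nearest to the single probe sets were AT4G35870 for AT5G48570 (0.9953), AT4G26120 for AT1G53540 (0.9999), AT4G10810 for the probe set of AT1G59860 and AT1G07400 (0.9999), TSC10B, an enzyme of sphingolipid synthesis, for AT2G29500 (0.9972), and AT5G11910 for AT5G37670 (0.9996). With 6 arrays in 2 tissues, values of this size follow largely from the step between seedlings and leaves.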

How the data were processed

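Total RNA of 6 samples was hybridized to Affymetrix ATH1 arrays. The deposited values are log2 signals for 22810 probe sets, normalized by the authors with GCRMA (version not given in the sources used here), and were used as deposited. The annotation supplied with the platform paired 13513 of 22746 probe sets other than controls with 1 gene, 503 with several and 8730 with none; 13436 of the 13513 matched a TAIR10.1 gene and 77 did not. A gene with several probe sets was represented by the one with the highest mean signal, leaving 13355 genes. Precision is limited by the 1 array per condition.

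Differences of log2 signals were taken between EST and mock and between leaves and seedlings. The threshold was 2-fold. Limma 3.58.1 (R 4.3.3) was fitted without a block, with Benjamini-Hochberg adjustment. Its code was also run on simulated arrays that held no step between seedlings and leaves. That run therefore does not show the power of the fit on these data. Members and lists were chosen with earlier results of these data known. Genes named are the members, the 4 genes of each list with the largest EST difference, those singled out at 2-fold between tissues, and the nearest patterns; Hop1, AT4G10250, AT1G52560 and AT4G30170 were named after their values were seen. AT3G07090 was taken off the co-chaperone list after its values were seen (1.22 in mock leaves against seedlings), as its product is not known as a co-chaperone. Its EST minus mock differences were 0.01 at 3 h, 0.05 at 4 h and −0.46 in leaves. Each of these signs is opposite to that of most listed chaperone genes, so its removal raised the shares given for that list. Alternatives were quantile normalization, median centring, a filter at a mean signal of 6, thresholds of 1.5-fold and 3-fold, other mock or seedling arrays, a block in limma and time points left out; all probe sets, and other scalings of the chaperone lists, were added after seeing the data. Sequences were not used here. Of 8 genes for leaf ageing and wounding the annotation paired 0 with a probe set of their own. Plots were made in Python 3.11.15 (matplotlib 3.10.9).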

Additional observations from a re-analysis of the deposited data

Results flagged for a closer look

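AT5G48570 was lower after EST in both seedling pairs and higher in the leaf pair, and its leaf difference exceeded the mean of its seedling differences by 1.32 on the log2 scale. The difference between the tissues was not tested. The same change of sign was seen for 11.7% of the genes more than 1 above the minimum (lower in both seedling pairs and higher in leaves) and for 9 of the 17 listed chaperone genes; with quantile normalization these were 17.6% and 9, and with median centring 19.9% and 9. Among the named ones, the leaf difference exceeded the seedling mean by 1.09 for AT5G51440, 0.71 for Hsp70-2 (AT5G02490), 0.62 for Hop3 (AT4G12400), 0.58 for AT5G47600, 0.56 for AT1G54050, 0.39 for AT2G21130, 0.30 for AT4G02450 and 0.24 for Hop2 (AT1G62740), none of them tested. The seedling differences of AT4G02450 were both −0.01, and the leaf signals of AT5G47600 lay at the array minimum. The seedling signs also depended on the mock array. With the mock arrays exchanged, the 4 h difference was above 0 for AT5G51440 (0.52), AT2G21130 (0.29) and AT5G47600 (0.12). It stayed below 0 for AT5G48570 (−0.45) and, only slightly, for the others of the 9 genes (−0.10 to −0.01). Leaves and seedlings also differ in hours of EST treatment, which cannot be told apart from tissue.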

How the results depend on the processing

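The leaf minus seedling difference of the members stayed above 0 in 46 of 46 recalculated values (1.21 to 4.54). These values reuse the same arrays, those under the filter equal the main ones, and the members were chosen with this difference in view. The count thus shows only how far the values moved with the processing. With the filter at a mean signal of 6, 3 member probe sets and 5204 genes were left, and the count at least 2-fold higher was 3 in mock and 3 in EST leaves, beside 1122 and 991 genes. At 3-fold, 3 of 5 passed in mock, beside 1075 of 13355 genes. The count of members past the threshold between EST and mock was 2 at 3 h, 3 in leaves and 2 between the mock arrays at 1.5-fold (766, 1158 and 588 of 13355 genes), and 0 at 3 h at 3-fold (51 genes). These gene counts hold both directions. The 3 in leaves were all higher (577 genes higher, 581 lower), as were the 2 between the mock arrays (378 and 210). With exchanged mock arrays the count of members at 2-fold was 2 at 3 h and 1 at 4 h (135 and 214 genes). AT5G48570 kept its sign in all alternatives at 3 h (−1.31 to −1.21), 4 h (−0.60 to −0.45) and 6 h (0.43 to 0.45). So did AT2G29500, AT5G37670 and the probe set of AT1G59860 and AT1G07400. At 6 h the alternatives only rescaled the same arrays or filtered the probe sets.

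Over all genes, those at least 2-fold different numbered 203 at 3 h, 106 at 4 h, 288 at 6 h, 3446 for mock leaves, 3094 for EST leaves and 95 between the mock arrays. At 1.5-fold these were 766, 446, 1158, 4898, 4619 and 588, at 3-fold 51, 19, 56, 1995, 1683 and 9, and with the filter 109, 50, 112, 2253, 2028 and 16. Over all probe sets they were 385, 206, 560, 6490 and 5836 without the last. With exchanged mock arrays 135 and 214 genes passed at 3 h and 4 h, and with averaged ones 127 at 3 h. Median centring moved the median of all genes by −0.13 between the mock arrays and by 0.13 for EST leaves, and shifted the higher and lower counts at 3 h from 151 and 52 to 115 and 77, at 4 h from 82 and 24 to 71 and 31, and between the mock arrays from 56 and 39 to 31 and 69. Quantile normalization gave 45 and 57 for the last.

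Limma called 0 genes with the time point as a replicate block (smallest adjusted p = 0.134; unadjusted p under 0.05 for 385 upward and 228 downward), and 3 without the 6 h arrays. It called 0 with quantile normalization, with the filter and without the 3 h or 4 h arrays, where unadjusted p was under 0.05 for 34 genes upward and 42 downward, 8 and 1, 45 and 34, and 64 and 44.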
